A study of Mus musculus with 6 samples.

Results

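The CCR4-NOT complex shortens the poly(A) tails of messenger RNA. Cnot1 is its scaffold, Cnot2 and Cnot3 form a module on it, and its 2 kinds of nuclease come as paralog pairs, Cnot6 or Cnot6l and Cnot7 or Cnot8. In the mouse oocyte, maternal RNA is stable until meiosis resumes, and BTG4, an adaptor of the BTG/TOB family, then joins the complex to translation initiation factors and is required for maternal RNA decay. TOB1 is another adaptor of that family, and PABPN1L is an oocyte and embryo poly(A)-binding protein that takes part in the same decay.

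All 10 of these genes (Btg4, Tob1, Pabpn1l, Cnot1, Cnot2, Cnot3, Cnot6, Cnot6l, Cnot7 and Cnot8) were taken by gene symbol from a table of 25239 genes. The table holds 6 libraries of oocytes at the germinal vesicle (GV) stage, when the nucleus is intact and meiosis is arrested. Cumulus-oocyte complexes of female CD-1 mice of 4 to 6 weeks were microinjected with water (3 libraries) or with phthalate metabolite mixtures (3 libraries). Both groups were then kept in the same maturation medium with 10% serum, follicle-stimulating hormone at 200 mIU/mL and sodium pyruvate at 50 µg/mL. The dose and make-up of the mixtures are not in the labels, and CD-1 is the only strain given. Libraries were made by Smart-seq3, which primes on the poly(A) tail with oligo(dT), and library totals ran from 252267 to 300917 counts. The labels name no animal or culture behind a library and can be read as a single oocyte in each group. Each group therefore counts as 1 sample, no difference between the groups was tested, and every interval printed covers counting error only.

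The libraries carried the defining RNA of the oocyte. A list of 10 markers (Gdf9, Bmp15, Zp1, Zp2, Zp3, Nlrp5, Oosp1, Figla, Nobox and Ooep) took between 2.09% and 2.58% of each library's counts, and the only one at 0 anywhere was Figla, in phthalate library 1. A list of 20 cumulus and granulosa markers had 75 counts over the water libraries and 55 over the phthalate libraries, between 10 and 39 in any of them. Of these, Nr5a2 alone had 64 and 39 counts, and the rest had 11 for water and 16 for phthalate, so the direction turned without it. At 0 were 15 markers for water and 13 for phthalate. Inha, Inhba, Inhbb, Fshr and Cyp11a1 had 2 to 6 counts each in phthalate libraries only. Kitl, Has2 and Lhcgr had 2 each in water libraries only. Amh, Foxl2, Ptgs2, Ptx3, Tnfaip6, Areg, Ereg, Star, Hsd17b1 and Gja1 had no count in any library. The part of this RNA in the ratios given here was not tested.

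The 3′ ends of the transcripts are shown because translation of many maternal messages during maturation is set there, by the cytoplasmic polyadenylation element (CPE) near the poly(A) signal. The sense strand of the longest coding transcript of each gene was searched over its last 100 bases for TTTTAT or TTTTAAT. A match was present in 5 of the 10 genes, against 17.2% of 20437 coding genes of the table and 20.6% of the 4532 that passed the count filter used below. Windows of 30 bases follow, 5′ to 3′ in the sense of the transcript, with the CPE and any AATAAA within the window in capitals.
Btg4: ctTTTTATgtctttttaaaagtttgattta
Cnot1: gaTTTTATatatgtgagtacactgatgctg
Cnot3: tgAATAAAtagTTTTATatgacggctggca
Cnot7: ttaaggtacaTTTTATatcAATAAAaatac
Cnot8: gtTTTTAATtttgtaaAATAAAgattgctt
These lie in GRCm38 (mm10) at chr9:51119807-51119836 on the plus strand (Btg4), chr8:95719494-95719523 on the minus strand (Cnot1), chr7:3661080-3661109 on the plus strand (Cnot3), chr8:40493036-40493065 on the minus strand (Cnot7) and chr11:58118555-58118584 on the plus strand (Cnot8). In Cnot7 and Cnot8 the CPE stood before AATAAA, and in Cnot3 it stood after it. The CPE of Btg4 began 67 bases from the annotated end and that of Cnot1 began 71 bases from it, with neither AATAAA nor ATTAAA in the last 40 bases. The other 5 genes (Tob1, Pabpn1l, Cnot2, Cnot6 and Cnot6l) had no CPE match in that window and had a poly(A) signal word. Such a word (AATAAA or ATTAAA in the last 40 bases) was present in 8 of the 10, against 72.0% of the coding genes and 77.7% of those that passed the filter. Both a CPE and a signal word were present in 3 of the 10, against 13.1% and 16.8%. A match is a string of letters in the reference, and the ends used in these oocytes were not measured.

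Because several of the genes are paralogs, the reference transcripts were also compared for sequence that reads could not tell apart. The coding sequences of Cnot7 and Cnot8 were identical at 72.8% of aligned positions, those of Cnot6 and Cnot6l at 74.5%, and those of Btg4 and Tob1 at 66.7%, the last with 408 further positions in gaps. The longest identical stretch in each nuclease pair was 20 bases, shown in capitals within 50 bases of coding sequence.
Cnot7: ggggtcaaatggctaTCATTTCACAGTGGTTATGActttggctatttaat
Cnot8: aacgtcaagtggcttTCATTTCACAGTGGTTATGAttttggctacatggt
Cnot6: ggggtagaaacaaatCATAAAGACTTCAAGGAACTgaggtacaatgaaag
Cnot6l: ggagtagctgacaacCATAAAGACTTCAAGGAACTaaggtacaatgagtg
The Cnot6 stretch is at chr11:49677427-49677476 and the Cnot6l stretch at chr5:96080060-96080109, both on the minus strand of GRCm38. The stretches of Cnot7 and Cnot8 cross an exon junction. No word of 75 bases was shared between any of the 10 transcripts, so a read of 150 bases from one paralog does not match another along its whole length. Words shared with genes outside the set were present in 4 transcripts. In Cnot3, 26.0% of 75-base words and 11.1% of 150-base words also occurred in transcripts of Gm9207 or, on the other strand, of Leng1. The shares of 75-base words were 8.87% in Cnot1 (Gm6158 and, antisense, 4930513N10Rik), 7.46% in Cnot8 (Gm18860) and 4.23% in Cnot7 (antisense to Zdhhc2). Leng1 had from 6 to 18 counts per library, 4930513N10Rik from 0 to 4 and Zdhhc2 had 0. By the RefSeq annotation of GRCm38, Cnot1 also overlapped Setd6, which had from 2 to 15 counts per library, and Cnot7 overlapped Vps37a, which had from 4 to 9. Btg4 overlapped Hoatz, Cnot6l overlapped Gm52799 and Cnot8 overlapped Gm12248. These coding genes have no row of that name in the count table. The use of strand is not given in the sources used here. The counts of Btg4, Cnot1, Cnot3, Cnot6l, Cnot7 and Cnot8 are therefore uncertain where they overlap other genes.

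Btg4 was the most abundant of the 10 transcripts. Levels are given in CPM (counts per 1000000 counts of the library, scaled by TMM factors) and, between genes, in CPM per kb of the longest coding transcript. Btg4 averaged 1859.6 CPM per kb over the 6 libraries (range 1285 to 2353) and ranked 22 among the genes with a coding transcript and a count, at percentile 99.8. Pabpn1l followed with 830.4 (737 to 1007), at percentile 99.4. The nucleases and the module came far below, with 95.9 for Cnot7 (67.6 to 117), 73.3 for Cnot3 (58.7 to 98.2), 49.8 for Cnot8 (33.4 to 58.9) and 42.8 for Cnot6l (30.2 to 52.7). Cnot2 had 29.4 (23.1 to 35.5) and Cnot1 had 13.5 (9.09 to 18.1). Tob1, with 5.32 (0 to 8.69), and Cnot6, with 3.77 (0 to 8.09), were lowest, at percentiles 48.8 and 42.0.

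With this length the order had 4 steps. The ranges over libraries did not overlap between Btg4 and Pabpn1l, between Pabpn1l and Cnot7, between Cnot2 and Cnot1, or between Cnot1 and Tob1. Every other pair of neighbours overlapped, from Cnot7 down through Cnot3, Cnot8 and Cnot6l to Cnot2, and Tob1 with Cnot6. The mean of Btg4 was 2.24 times that of Pabpn1l, and the mean of Pabpn1l was 8.66 times that of Cnot7. With the median length of a gene's coding transcripts instead, which for Cnot6l is 526 bases against 8564 for the longest, Cnot6l came next after Pabpn1l, at 697 against 843 CPM per kb, with overlapping ranges. The steps below Btg4, from Cnot2 to Cnot1 and from Cnot1 to Tob1 were also free of overlap with that length. So were those from Cnot6l to Cnot3, from Cnot3 to Cnot7 and from Cnot7 to Cnot8, so the overlapping block above depends on the length used. In CPM without length scaling, Cnot1 stood above Cnot2 and their ranges overlapped. Scaling by length assumes reads along the whole transcript, which Smart-seq3 gives only in part.

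**Figure D1:**
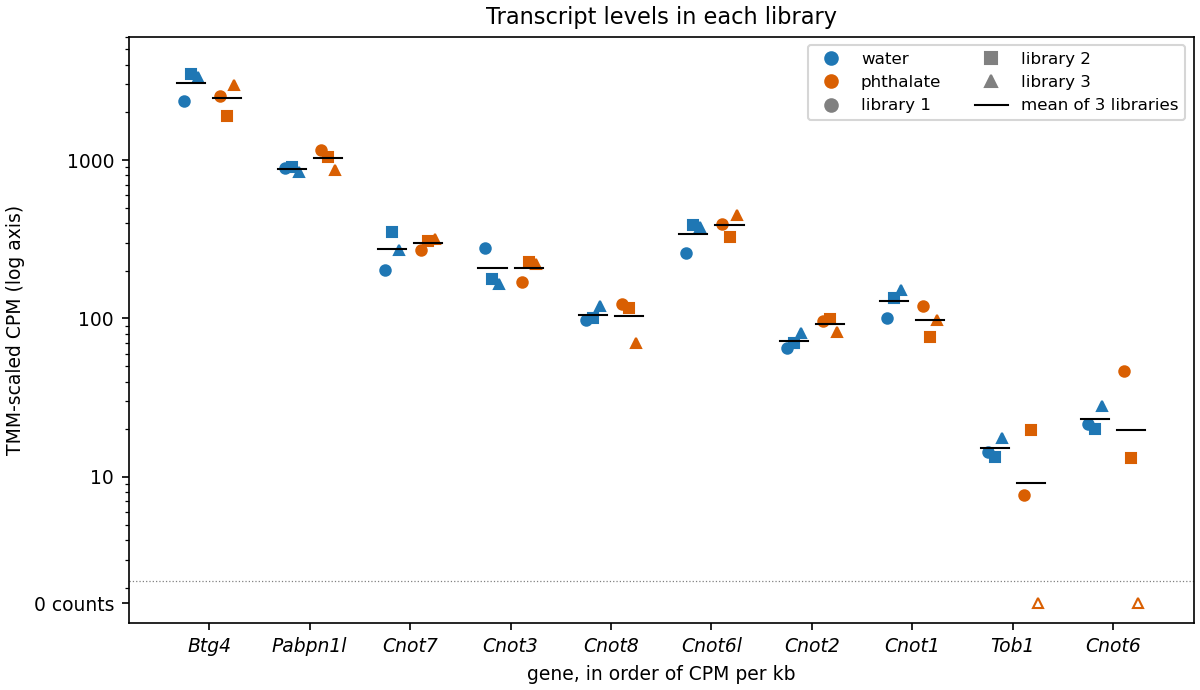
TMM-scaled CPM (log axis) of each gene in the 3 water libraries (blue) and the 3 phthalate libraries (orange), with the mean of each group as a bar and genes in order of CPM per kb. Open symbols under the dotted line are libraries with 0 counts. Btg4 lies between 1909 and 3496, and Tob1 and Cnot6 had no count in phthalate library 3.

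Among the adaptors, Btg4 (chr9:51060901-51119875, plus strand) had 651, 1041 and 944 counts in water libraries 1, 2 and 3 and 652, 576 and 767 in phthalate libraries 1, 2 and 3. In CPM these were 2342, 3496 and 3329 against 2520.05, 1909 and 2984. Water library 1 lay below phthalate libraries 1 and 3, so the groups overlapped. The lowest level was that of phthalate library 2.

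Summed over libraries, Btg4 reached 2636 counts for water (95% Poisson interval 2536 to 2739) and 1995 for phthalate (1908 to 2085). The log2 ratio of phthalate over water was -0.33 (95% interval -0.41 to -0.25, or -0.45 to -0.21 with counts halved to read pairs), which is 0.796 on the linear scale. The levels within a group differed by more than that, 1.49-fold between the extremes of the water libraries and 1.56-fold between those of the phthalate libraries. The ratio was -0.15 without phthalate library 2, -0.22 without water library 2 and -0.49 without phthalate library 3. Of the other 62 tested genes within a factor of 2 of its mean count, 0 had a lower ratio, and the lowest of these was also -0.33. That number was 6 without phthalate library 2 and 5 without phthalate library 3 or water library 2. Of the 10 oocyte markers, 7 also had ratios below 0 and 3 above (list median -0.058, range -0.33 to 0.045). As read by oligo(dT) priming, a level can move with the number of messages or with the length of their tails, and these cannot be told apart.

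Tob1 (chr11:94211454-94215495, plus strand) was near the limit of detection. It had 4, 4 and 5 counts in the water libraries and 2, 6 and 0 in the phthalate libraries. The zero in phthalate library 3 allows a level of up to 11.7 CPM (3 counts). Its sums of 13 and 8 counts gave a log2 ratio of -0.63 with an interval from -2.11 to 0.75, too wide at this depth to show a difference. The ratio was -1.96 without phthalate library 2 and -0.085 without phthalate library 3. Of the joint counts of Btg4 and Tob1, Btg4 made up 99.5% for water and 99.6% for phthalate.

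Pabpn1l (chr8:122619471-122622739, minus strand) had 249, 268 and 240 counts in the water libraries and 299, 317 and 224 in the phthalate libraries. Its CPM was 896, 900.0 and 846 against 1156, 1051 and 872. Phthalate libraries 1 and 2 were the highest of all, and phthalate library 3 lay within the water range. The log2 ratio was 0.22 (0.079 to 0.37, or 0.018 to 0.43 on read pairs), from sums of 757 and 840 counts.

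Btg4 and Pabpn1l can be set against each other inside a library, with no scaling between libraries. Btg4 took 72.3%, 79.5% and 79.7% of their joint counts in water libraries 1, 2 and 3, and 68.6%, 64.5% and 77.4% in phthalate libraries 1, 2 and 3. The sums gave 77.7% (95% exact interval 76.3 to 79.1) and 70.4% (68.7 to 72.0). Phthalate library 3 lay above water library 1, so the groups overlapped here too. The phthalate share was 73.1% without library 2 and 66.6% without library 3.

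The scaffold Cnot1 (chr8:95719451-95807464, minus strand) had 28, 40 and 43 counts in the water libraries and 31, 23 and 25 in the phthalate libraries. Its CPM was 101, 134 and 152 against 119.8, 76.2 and 97.3. Phthalate libraries 2 and 3 were the lowest, and phthalate library 1 lay inside the water range. The log2 ratio was -0.42 (-0.85 to 0.011), the lowest of the tested genes of the set. It was -0.24 without phthalate library 2 and -0.59 without phthalate library 1, which puts it just past 1.5-fold.

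Cnot2 (chr10:116485161-116581511, minus strand), a module subunit, was the only one of the 10 whose groups did not overlap. It had 18, 21 and 23 counts against 25, 30 and 21, or 64.8, 70.5 and 81.1 CPM in the water libraries and 96.6, 99.4 and 81.7 in the phthalate libraries. The gap between water library 3 and phthalate library 3 was under the 3.53 CPM that 1 count is worth in water library 3. With DESeq2 size factors or plain library totals the groups overlapped. The log2 ratio was 0.37 (-0.14 to 0.87).

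Cnot3 (chr7:3645268-3661109, plus strand), the partner of Cnot2 in the module, had 77, 53 and 47 counts in the water libraries and 44, 69 and 57 in the phthalate libraries. Its CPM was 277, 178 and 166 against 170.1, 229 and 222. The highest and the lowest library were both water, and the log2 ratio was 0.014 (-0.30 to 0.33).

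Of the CCR4-type nucleases, Cnot6l (chr5:96070333-96164171, minus strand) had 72, 116 and 107 counts in the water libraries and 102, 99 and 116 in the phthalate libraries. Its CPM was 259, 389.5 and 377 against 394, 328 and 451, with a log2 ratio of 0.18 (-0.057 to 0.41). Water library 1 was the lowest and phthalate library 3 the highest, with the others interleaved. Cnot6 (chr11:49671503-49712723, minus strand) had 6, 6 and 8 counts against 12, 4 and 0, and a log2 ratio of -0.25 (-1.30 to 0.77). Its ratio was -1.70 without phthalate library 1 and 0.29 without phthalate library 3.

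Cnot6l was the dominant paralog in every library. It made up 92.3%, 95.1% and 93.0% of the pair's counts in water libraries 1, 2 and 3, and 89.5%, 96.1% and 100% in phthalate libraries 1, 2 and 3. In the sums its share was 93.7% (90.4 to 96.1) for water and 95.2% (92.3 to 97.2) for phthalate, and the intervals overlapped. Per kb of transcript the shares were 90.8% and 93.0%. Without phthalate library 1, the phthalate share was 98.2%.

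Of the CAF1-type nucleases, Cnot7 (chr8:40492540-40515847, minus strand) had 56, 104 and 77 counts in the water libraries and 70, 93 and 81 in the phthalate libraries. Its CPM was 201, 349 and 272 against 271, 308 and 315, and all phthalate libraries lay inside the water range. The log2 ratio was 0.11 (-0.15 to 0.38). Cnot8 (chr11:58104153-58118594, plus strand) had 27, 30 and 34 counts against 32, 35 and 18. Its CPM was 97.1, 101 and 119.9 against 124, 116 and 70.0, with phthalate library 3 the lowest, and its log2 ratio was -0.026 (-0.47 to 0.42).

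The counts of Cnot7 and Cnot8 were less unequal than those of the other nuclease pair. Cnot7 made up from 67.5% to 77.6% of their counts in the water libraries and from 68.6% to 81.8% in the phthalate libraries. The sums gave 72.3% (67.1 to 77.0) and 74.2% (69.1 to 78.8). Per kb these became 64.7% and 66.9%.

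**Figure D2:**
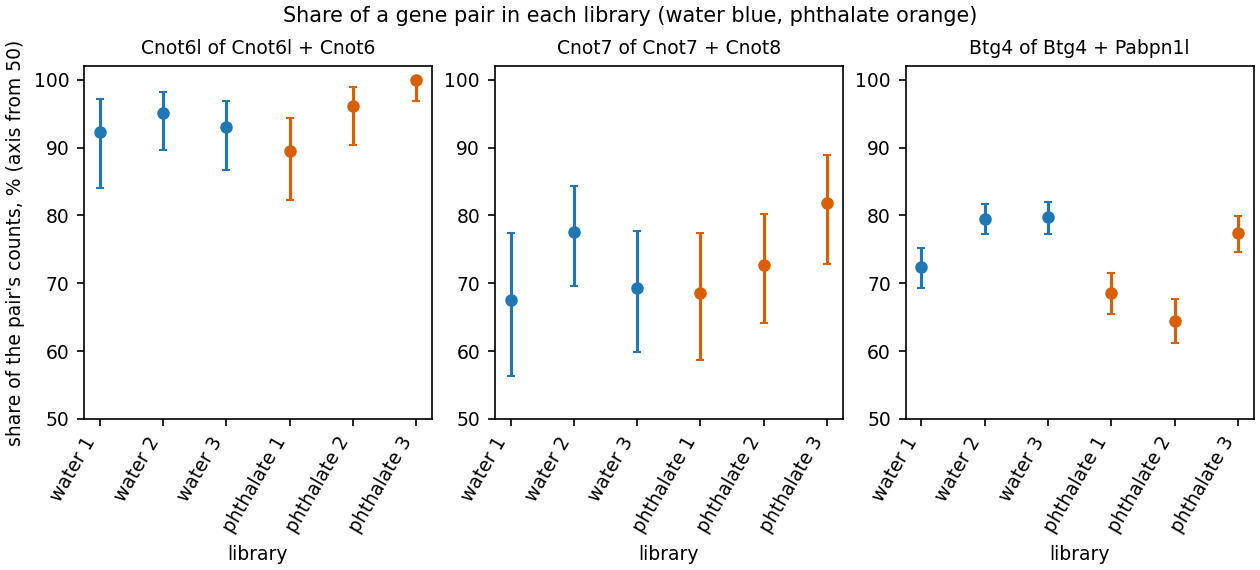
Share of a gene pair's counts taken by the first gene in each library, in percent, with 95% exact binomial intervals. The vertical axis starts at 50%. Cnot6l holds at least 89.5% of its pair in every library, Cnot7 from 67.5% to 81.8%, and Btg4 from 64.5% to 79.7% of the counts it shares with Pabpn1l.

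Read against the whole table, the shares of these genes that stood out were near or under those of all genes. The count filter was passed by 8 (all except Tob1 and Cnot6), and by 4644 genes in all. Past 1.5-fold in the sums were 0 of the 8, where 15.1% of the 4644 were (6.96% higher and 8.14% lower in phthalate). The groups did not overlap for 1 of the 8 (Cnot2), with phthalate above, where 10.1% of all genes showed this, 5.15% with phthalate above and 5% with phthalate below. The counting interval left out 0 for 2 of the 8 (Btg4 below and Pabpn1l above), where 22.7% of all genes did, 11.6% above and 11.1% below. Of the 8 ratios, 5 were above 0 and 3 below, with a median of 0.064, and the median over all 4644 was 0.0089 (5th to 95th percentile -0.72 to 0.66). Over all 10 genes the median was -0.0062. The percentile range takes in sparser genes. Over the genes within a factor of 2 of the mean count of Btg4, it was -0.25 to 0.30.

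**Figure D3:**
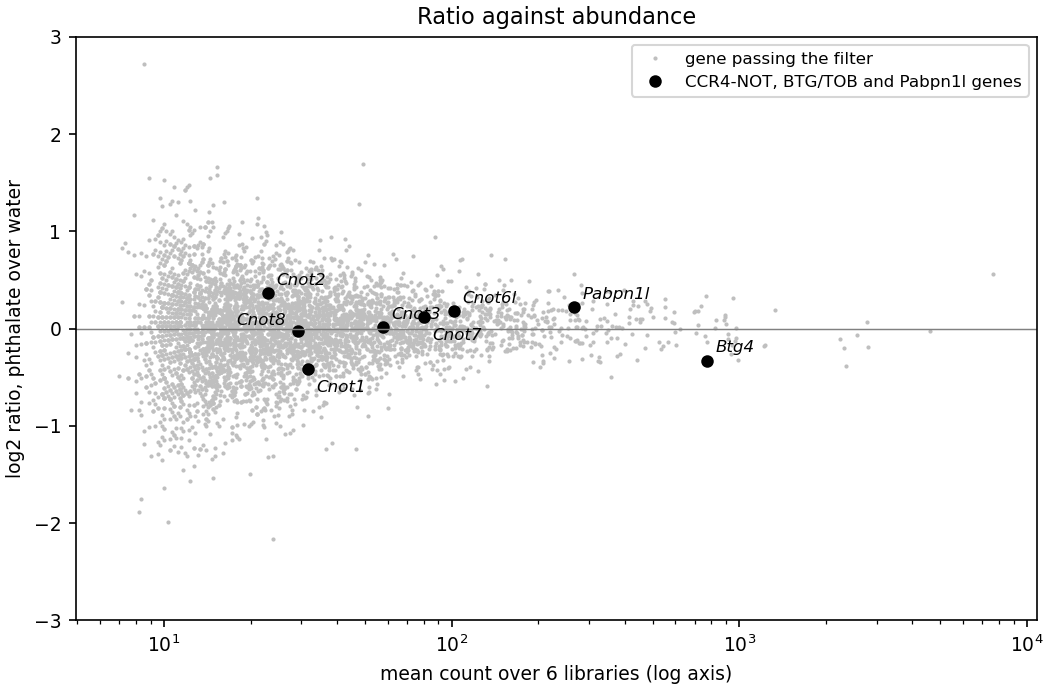
Log2 ratio of phthalate over water against the mean count over 6 libraries (log axis), for 4644 genes (grey) and the 8 of the set that passed the filter (black). The grey points narrow with abundance, and Btg4, at -0.33 and a mean count of 772, lies at their lower edge.

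The other subunits of the complex were described in the same way. All 5 in the table passed the filter (Cnot4, Cnot9, Cnot10, Cnot11 and Tnks1bp1), with a median log2 ratio of -0.29, 2 above 0 and 3 below. Cnot4, a ubiquitin ligase and the most abundant of them, had 60, 52 and 44 counts against 55, 47 and 66, and its ratio was 0.18 (-0.14 to 0.50). Cnot11, which binds the scaffold with Cnot10, had 41, 58 and 52 counts against 37, 34 and 36, or 148, 195 and 183 CPM against 143, 113 and 140.1. Its phthalate values lay below its water values, with a ratio of -0.42 (-0.80 to -0.058, but -0.96 to 0.0996 on read pairs). Of all tested genes, 5% had groups that did not overlap with phthalate below and 11.1% had an interval below 0. Cnot9, picked out after its values were seen, was the only one of the 5 past 1.5-fold, against 15.1% of all tested genes in either direction and 8.14% lower. Its ratio was -0.69 (-1.30 to -0.094, but -1.57 to 0.16 on read pairs) from 33, 10 and 23 counts against 14, 18 and 7, -0.25 without water library 1 and -0.43 without phthalate library 3.

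Tob2 was the only other BTG/TOB gene to pass the filter. The protein is a close relative of TOB1. It had 43, 27 and 49 counts in the water libraries and 56, 60 and 66 in the phthalate libraries, or 155, 90.7 and 173 CPM against 216, 199 and 257. Each phthalate value exceeded each water value, and the log2 ratio was 0.69 (0.34 to 1.03, or 0.20 to 1.18 on read pairs), past 1.5-fold. Of all tested genes, 5.15% had groups that did not overlap with phthalate above, 6.96% were past 1.5-fold higher and 11.6% had an interval above 0. Without water library 2 it was 0.45 and without phthalate library 3 it was 0.58, both short of 1.5-fold. Btg1 had 0, 1 and 2 counts against 3, 4 and 7, Btg2 had 0, 2 and 11 against 4, 6 and 2, and Btg3 had 0 in all 6 libraries.

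Of the 7 other deadenylases in the table, 5 passed the filter (Pan2, Pan3, Parn, Noct and Angel2), all with ratios above 0, from 0.039 to 0.42, and a median of 0.20. The other 2 had ratios below 0, -0.42 for Angel1 (31 counts for water, 22 for phthalate) and -1.03 for Pde12 (15 and 7), with intervals that took in 0. Of the 5, none was past 1.5-fold (15.1% of all tested genes), none had groups that did not overlap (10.1%) and none had an interval without 0 (22.7%). Angel2 was the most abundant, with 36, 62 and 41 counts against 45, 69 and 43 and a ratio of 0.25 (-0.091 to 0.59).

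RNA-binding proteins and other factors that can bring deadenylases to messages included 22 listed genes, of which 8 passed the filter, 2 with ratios above 0 and 6 below (median -0.078). None of these 8 was past 1.5-fold, against 15.1% of all tested genes. Cpeb1, the protein that binds the CPE, was the most abundant, with 150, 200 and 164 counts against 169, 200 and 182 and a ratio of 0.17 (-0.0036 to 0.35). Ythdf3, a reader of methylated RNA, had the widest ratio of these 8, -0.46 (-0.95 to 0.031), from 27, 24 and 37 counts against 18, 20 and 23. Tnrc6a and Rc3h1 failed the filter, with 25 and 28 counts for water and 11 and 17 for phthalate. Their ratios were -1.11 (-2.28 to -0.037, but -2.88 to 0.44 on read pairs) and -0.65 (-1.61 to 0.27). Their phthalate values lay below their water values, as for 5% of all tested genes. Samd4b, Mex3b and Ythdf1, also under the filter, had ratios above 0, and Samd4 had 0 counts for water and 6 for phthalate. Zfp36l1, Zfp36l3 and Nanos3 had no count in any library.

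**Figure D4:**
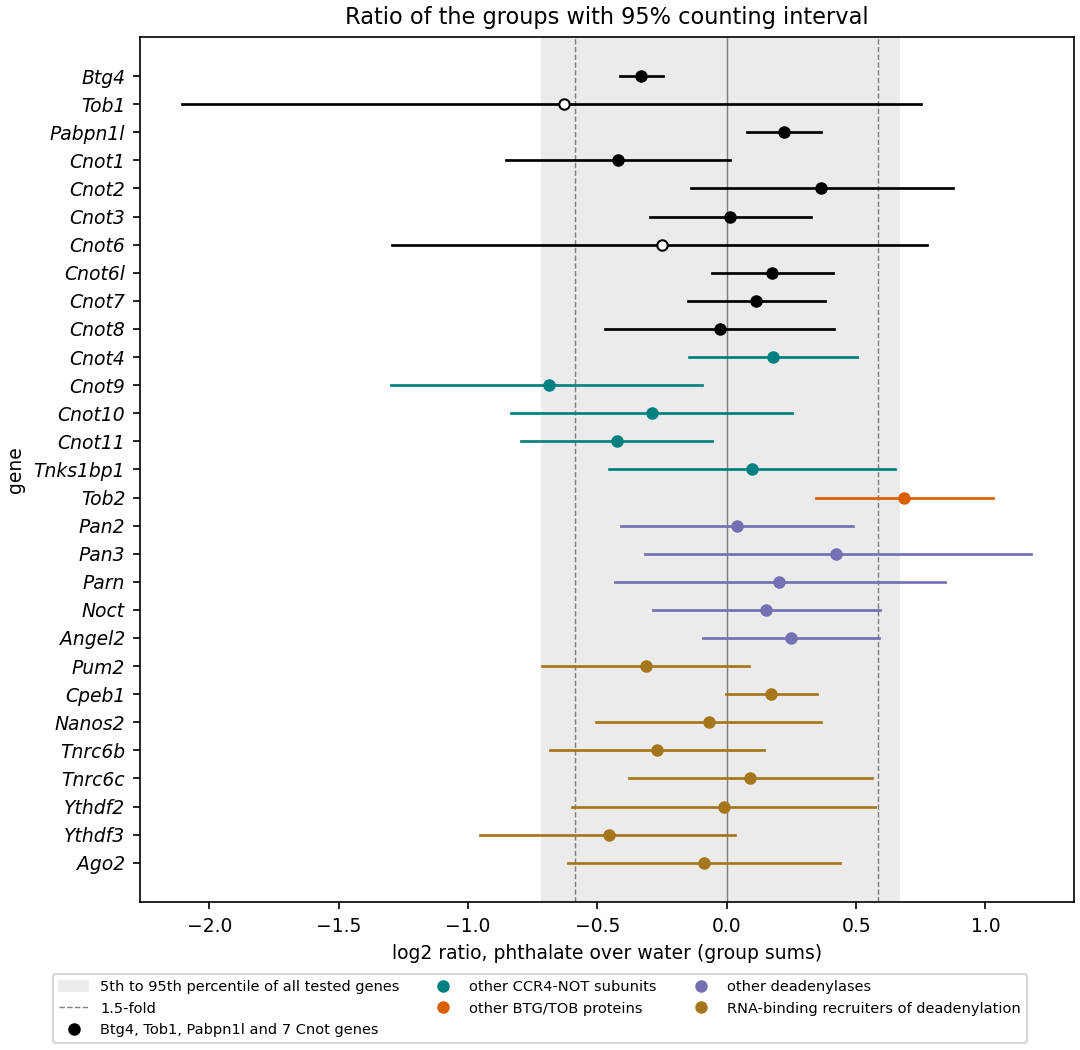
Log2 ratio of phthalate over water from group sums, with 95% counting intervals, for the 10 genes (black, open where the filter was not passed) and for the tested genes of 4 related lists (colours). The grey band spans the 5th to 95th percentile of all tested genes, -0.72 to 0.66. Only Tob2 and Cnot9 among the filled symbols lie past the dashed 1.5-fold lines.

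By the pattern of centred log2 CPM over the 6 libraries, the genes nearest to Btg4 among 447 others with a mean count of at least 100 were Eif4enif1, E330034G19Rik and Sub1. Their root-mean-square differences from Btg4 were 0.0886, 0.126 and 0.134, against a median of 0.337. Eif4enif1, which encodes a binding partner of the translation factor eIF4E, had 137, 191 and 186 counts in the water libraries and 141, 126 and 155 in the phthalate libraries. Like Btg4, it was lowest in phthalate library 2 and lower in water library 1 than in the other 2 water libraries. Sub1 was lowest in phthalate library 1, at 649 CPM against 660 in phthalate library 2. The genes were picked for likeness over these same 6 libraries, so the likeness follows from the choice.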

How the data were processed

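The deposited table gives raw counts for each gene symbol as whole numbers. It also holds 92 ERCC spike-in rows, left out here. Per the submitters' processing notes, the tools were cutadapt, Trimmomatic, HISAT2 and DESeq2 and the build was mm10. The counting tool, annotation, use of strand and handling of molecular identifiers are not given in the sources used here. Over all genes, most small counts are even (69.9% of those from 1 to 20). Of all 58 nonzero values of the 10 genes, 53.4% are even. Most of those values are above 20, so these shares cannot be compared. The counts of Tob1 and Cnot6 were all even but for a 5 of Tob1. Whether both reads of a pair were counted is not known, so where the printed interval of a ratio leaves out 0, that for counts divided by 2, called read pairs in the text, is given as well.

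Genes were filtered with edgeR 4.0.16 (filterByExpr, minimum count 10, minimum total 15) in R 4.3.3. A log2 ratio is that of the group sums over TMM-scaled totals, and its 95% interval comes from the exact binomial (Clopper-Pearson) limits of the phthalate share of both sums (scipy 1.17.1). A sum of 0 would be set to 3 counts. DESeq2 1.42.0 size factors, plain totals, equal weights, other filters and leaving out each library were tried as alternatives. The calculation was tested on simulated Poisson counts with no added spread between libraries and no doubled counts. That test therefore cannot show how the intervals hold under either. PCR copies are not independent molecules, so intervals are too narrow.

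Transcripts, lengths and gene positions come from GENCODE M21 (GRCm38), and coding sequences were aligned with Biopython 1.88. Protein identities had been planned, and coding-sequence identities took their place.

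The 10 genes and all lists were chosen with earlier results of these data known. Named genes are the 10, and from each related list the most abundant gene and that of largest ratio with a mean count of at least 20, plus the 3 genes most like Btg4. Cnot9, Angel1, Pde12, Tnrc6a, Rc3h1, Samd4, Samd4b, Mex3b, Ythdf1 and the low BTG genes were named after their values were seen. The pairing of Btg4 with Pabpn1l, the removal of Rn45s, the separation of groups under other scalings, the median over filtered genes and the ranking of Btg4 among genes of like abundance were added after the data were seen.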

Additional observations from a re-analysis of the deposited data

How the results depend on the processing

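No paired analysis was possible because the results come from no test, and no label says that libraries with the same number share an animal, culture or day. Of the 10 genes, 6 (Btg4, Tob1, Pabpn1l, Cnot1, Cnot2 and Cnot6l) kept the sign of their ratio under all 12 alternatives, and Cnot3, Cnot6, Cnot7 and Cnot8 did not. The number past 1.5-fold ranged from 0 to 1 when 1 library was left out (1, Cnot1, without phthalate replicate 1) and was 1, Tob1, with no filter on low counts. Separation of the groups held for 0 genes with DESeq2 size factors and for 0 with plain totals. The share of all genes past 1.5-fold was 39.6% with no filter and 8.05% at a mean count of at least 20, and 2.78% were past 2-fold. The Cnot7 share per kb was 64.7% in water and 66.9% in phthalate, and the Btg4 share against Pabpn1l per kb was 72.9% and 64.7%. Leaving out 1 library gave phthalate shares from 92.6% to 98.2% for Cnot6l, from 99.4% to 99.9% for Btg4 against Tob1 and from 66.6% to 73.1% for Btg4 against Pabpn1l, and water shares from 76.5% to 79.6% for the last. Without length scaling, 2 of the 10 genes kept their place in the order, since the transcripts differ in length. Without Rn45s, whose share was higher in every phthalate library, the ratio of Btg4 was -0.33. The marker difference for cumulus and granulosa cells, with Nr5a2 counted in, ranged from -0.00418 to 0.000532 percentage points, and its part in the ratios was not tested. With sums of 62 to 317 counts for most Cnot genes, depth limits what ratio could be seen. The cause of the other changes was not tested.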
